A study of Mus musculus with 5 samples.

Results

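Genes for the factors that start, extend and end protein synthesis were followed through an RNA immunoprecipitation (RIP) of FLAG-tagged MKRN1 from mouse embryonic stem cells. The genes were chosen by symbol in the platform annotation: Eif followed by a digit, Eef1 and Eef2, with Etf1, Gspt1, Denr and Mcts1, and without the eIF2 alpha kinases, Eef2k and similar names. The rule took 57 of 19937 genes, from 66 of 21640 probe sets with 1 gene symbol. Each gene was represented by its brightest probe set, by the mean of the 5 arrays. By its letters the rule also took 4 genes of eEF1A methyltransferases (Eef1akmt1, Eef1akmt2, Eef1akmt3 and Eef1aknmt), which modify an elongation factor and are described apart. Genes of Eif1, Eif2s1, Eif3g, Eif3j1, Eif3j2, Eif4g1 and Eef1g were not analysed here.

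RNA of 5 samples was hybridised, 1 array each, so no value below has a replicate error and no test was run. All samples came from R1 cells, a male embryonic stem cell line of strain 129X1 x 129S1 grown with LIF and serum. The lines carried, from a pCAGGS promoter, either a FLAG:MKRN1 fusion or the FLAG construct without MKRN1 (FLAG:Ctrl), were expanded as clones resistant to G418, and were thawed on fibroblast feeders before growth without them. The number of clones behind each lysate is not stated in the labels. From FLAG:MKRN1 lysate there was an anti-FLAG RIP, an IgG RIP and the input taken before precipitation. From FLAG:Ctrl lysate there was an anti-FLAG RIP (the FLAG:Ctrl RIP) and an input. Per the labels, the IgG RIP and the FLAG:Ctrl RIP were the controls for spurious recovery.

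The Mkrn1 probe set did not separate the lines. On the log2 scale it read 11.71 in the input of FLAG:MKRN1 cells and 11.80 in FLAG:Ctrl input, a difference of -0.09. The RIP with anti-FLAG beads from FLAG:MKRN1 cells read 11.90, against 11.99 in the IgG RIP and 12.20 in the FLAG:Ctrl RIP, so it is named the MKRN1-labelled RIP, and directions rest on its label. Stem cell identity was checked with marker genes. All 8 stem cell markers passed the level filter, with medians between 11.22 and 11.43 on the 5 arrays. The dimmest of the 8 read between 7.86 and 8.29 by array. On each array this was below the brightest feeder fibroblast marker, Thy1. Of 8 feeder fibroblast markers 5 passed, with medians over the 8 between 5.83 and 6.11, and the brightest of them reached 8.93 in the MKRN1-labelled RIP, with 9.88 as the maximum in FLAG:Ctrl input. Of 6 markers of differentiated cells 3 passed, with medians over the 6 between 5.89 and 6.14, and the brightest, Pax6, read 8.00 in the MKRN1-labelled RIP and 6.41 in FLAG:Ctrl input. Their part in the results was not tested. The MKRN1-labelled RIP stood apart from the other arrays over all probe sets. Its Pearson correlation with them lay between 0.959 and 0.967, against 0.992 between the control RIPs. Every comparison that includes it shares that 1 array.

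Initiation begins when eIF2 brings the initiator tRNA to the small ribosomal subunit, helped by eIF1, eIF1A, eIF5 and the large eIF3 complex. The eIF4 factors bind the cap of the mRNA, bridge it to eIF3 and unwind its leader, and eIF2B recharges eIF2 with GTP. The elongation factors eEF1A and eEF2 then carry aminoacyl-tRNA to the ribosome and move it along the mRNA, until the release factors eRF1 and eRF3 end the chain. The mRNAs of several of these factors are known for a pyrimidine tract at their 5′ end, through which their translation follows growth signals.

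The start-site sequences show what the annotated promoters of the lowest eIF3 genes and of genes on the 5′ oligopyrimidine list look like. RefSeq promoters (GRCm38.p6) were found for 43 of the 57 genes. Each line below spans 35 bases before to 15 bases after the annotated start. Capitals mark any run of at least 5 pyrimidines (C or T, on the strand of transcription) that touches the 5 bases before or after the start.
Eif3a (chr19:60790679-60790728, minus strand): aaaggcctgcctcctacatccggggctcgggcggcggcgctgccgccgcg
Eif3l (chr15:79075188-79075237, plus strand): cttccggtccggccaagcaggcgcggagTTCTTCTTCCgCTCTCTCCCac
Eif3m (chr2:105017013-105017062, minus strand): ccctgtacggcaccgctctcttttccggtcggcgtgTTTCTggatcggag
Eif3f (chr7:108934380-108934429, plus strand): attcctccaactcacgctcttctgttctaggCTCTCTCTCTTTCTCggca
Eif4b (chr15:102073738-102073787, plus strand): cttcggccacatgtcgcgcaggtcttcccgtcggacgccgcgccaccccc
Eef1a1 (chr9:78481710-78481759, minus strand): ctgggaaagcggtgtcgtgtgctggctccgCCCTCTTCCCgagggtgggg
Eef1b2 (chr1:63176796-63176845, plus strand): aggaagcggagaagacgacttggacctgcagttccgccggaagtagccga
Eef2 (chr10:81176596-81176645, plus strand): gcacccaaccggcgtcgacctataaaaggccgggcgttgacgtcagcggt
Such a run was present in 4 of these 8 windows, in 33.9% of the 56 promoters of translation factor genes and in 31.4% of all 32851 promoters. The longest, of 15 pyrimidines, was at the start of Eif3f.

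Of the 57 genes, 55 had a mean log2 value at or above 5.76, the median over all probe sets, and were compared. The others, Eif4e1b and Eef1akmt3, lay below that level and differed by at most 0.26 between the MKRN1-labelled RIP and a control RIP. In the MKRN1-labelled RIP translation factor genes lay below the control RIPs more often than above them. Of the 55 genes, 39 lay below both control RIPs (70.9%, and 44.4% of all genes compared) and 10 above both. The number below both ran from 30 to 47 over the scalings tried, and the share of all genes moved too. It was 47 with each array centred on its median (85.5%, and 70.4% of all genes). With the trend with signal level removed it was 30 (54.5%, and 44.0% of all genes). With arrays centred on the genes compared it was also 30 (54.5%, and 33.9% of all genes). The median log2 difference was -0.25 for the FLAG:Ctrl RIP as the control and -0.29 for the IgG RIP, against -0.03 and -0.00 over the 11502 genes compared. The MKRN1-labelled RIP was the lowest of the 5 arrays for 31 of the 55 genes (56.4%), against 32.6% of all genes compared.

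Genes of high signal level had shifts of this size throughout the array. For all 5733 genes with a mean above the 75th percentile of probe sets, 50 of the 55 among them, the median differences were -0.26 with the FLAG:Ctrl RIP and -0.24 with the IgG RIP. The 50 translation factor genes in that range had medians of -0.25 and -0.31. With the trend with signal level removed, the medians of the 55 genes were -0.09 and -0.13. All genes compared were then at -0.00 and -0.00. Above the 75th percentile, 76.0% of translation factor genes and 62.1% of all genes lay below both control RIPs. With the input as the comparison, the medians there were -0.22 for translation factor genes and -0.09 for all genes. In the cumulative curves the shift from each control RIP is thus close in median to that of other bright genes, and the shift from input is larger.

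**Figure D1:**
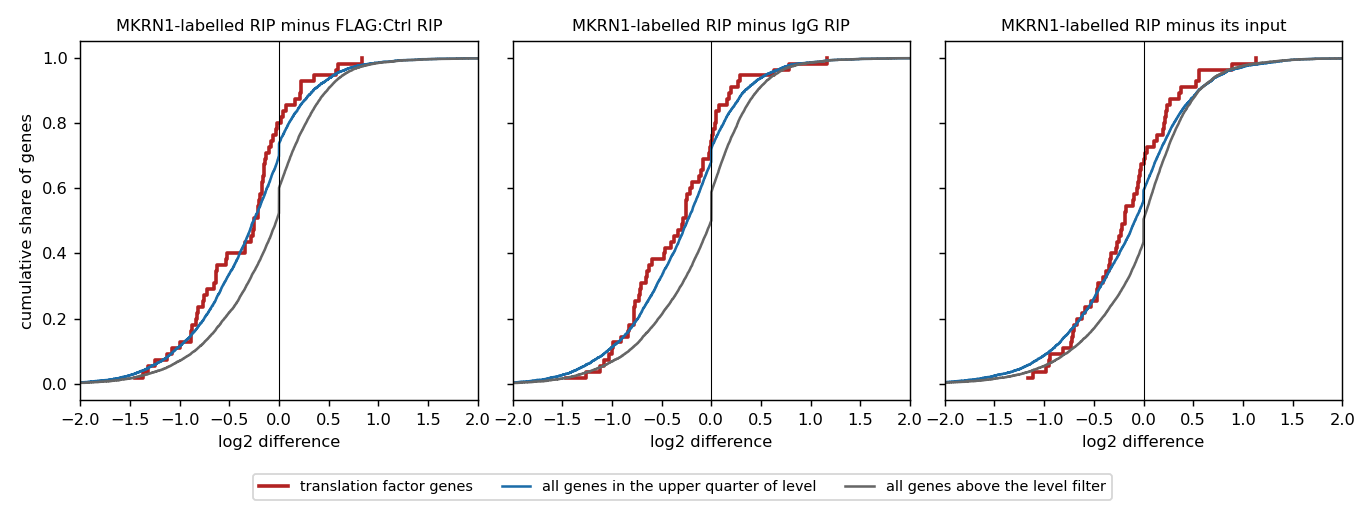
Cumulative share of genes (y axis) by log2 difference (x axis) of the MKRN1-labelled RIP from the FLAG:Ctrl RIP, the IgG RIP and its input. At the median the curve of the 55 translation factor genes lies left of that of all 11502 genes above the level filter in each panel. The tails do not all follow. At least 2-fold below input are 3.64% of the 55 genes and 5.51% of all genes, and at least 2-fold above the IgG RIP 1.82% and 1.53%. The medians of all genes above the 75th percentile of level are -0.26, -0.24 and -0.09, against -0.25, -0.29 and -0.19 for the 55 genes.

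Each gene was scored by whichever of its 2 differences to a control RIP was nearer to 0, with a score of 0 where the signs disagreed. A gene was called lower, or higher, when the MKRN1-labelled RIP was at least 2-fold below, or above, both control RIPs and also below, or above, its input. By this rule 4 of the 55 genes were called lower, or 7.27%, and 5.36% of all genes compared. None was called higher, against 1.09% of all genes. Above the 75th percentile of level the shares called lower were 8.00% of translation factor genes and 9.05% of all genes, and those called higher 0% and 1.03%. The share called lower is thus close to that of all genes above this percentile, which were not matched in level to the translation factor genes. The 4 genes were Eif3a, Eif3l and Eif3m of the eIF3 complex and the methyltransferase gene Eef1akmt1.

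At a threshold of 1.5-fold, 18 of the 55 genes were called lower (32.7%, and 14.4% of all genes) and 1 higher, Eif5a (1.82%, and 4.76% of all genes). Above the 75th percentile of level the shares called lower were 36.0% of translation factor genes and 23.4% of all genes, and those called higher 2.00% and 3.37%. The share called lower was above that of all genes at 1.5-fold and close to it at 2-fold.

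Taking the control RIPs one at a time, 6 genes (10.9%) lay at least 2-fold below the FLAG:Ctrl RIP, against 7.11% of all genes. Beside the 4 called genes these were Eif2b3 and Eif2b5. The same number lay at least 2-fold below the IgG RIP, against 6.94% of all genes, and here Eef1akmt2 and Eif2a joined the 4. In the other direction, no gene was at least 2-fold above the FLAG:Ctrl RIP (1.62% of all genes) and 1, Eif5a, was at least 2-fold above the IgG RIP (1.53% of all genes). Both comparisons use the same array of the MKRN1-labelled RIP.

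**Figure D2:**
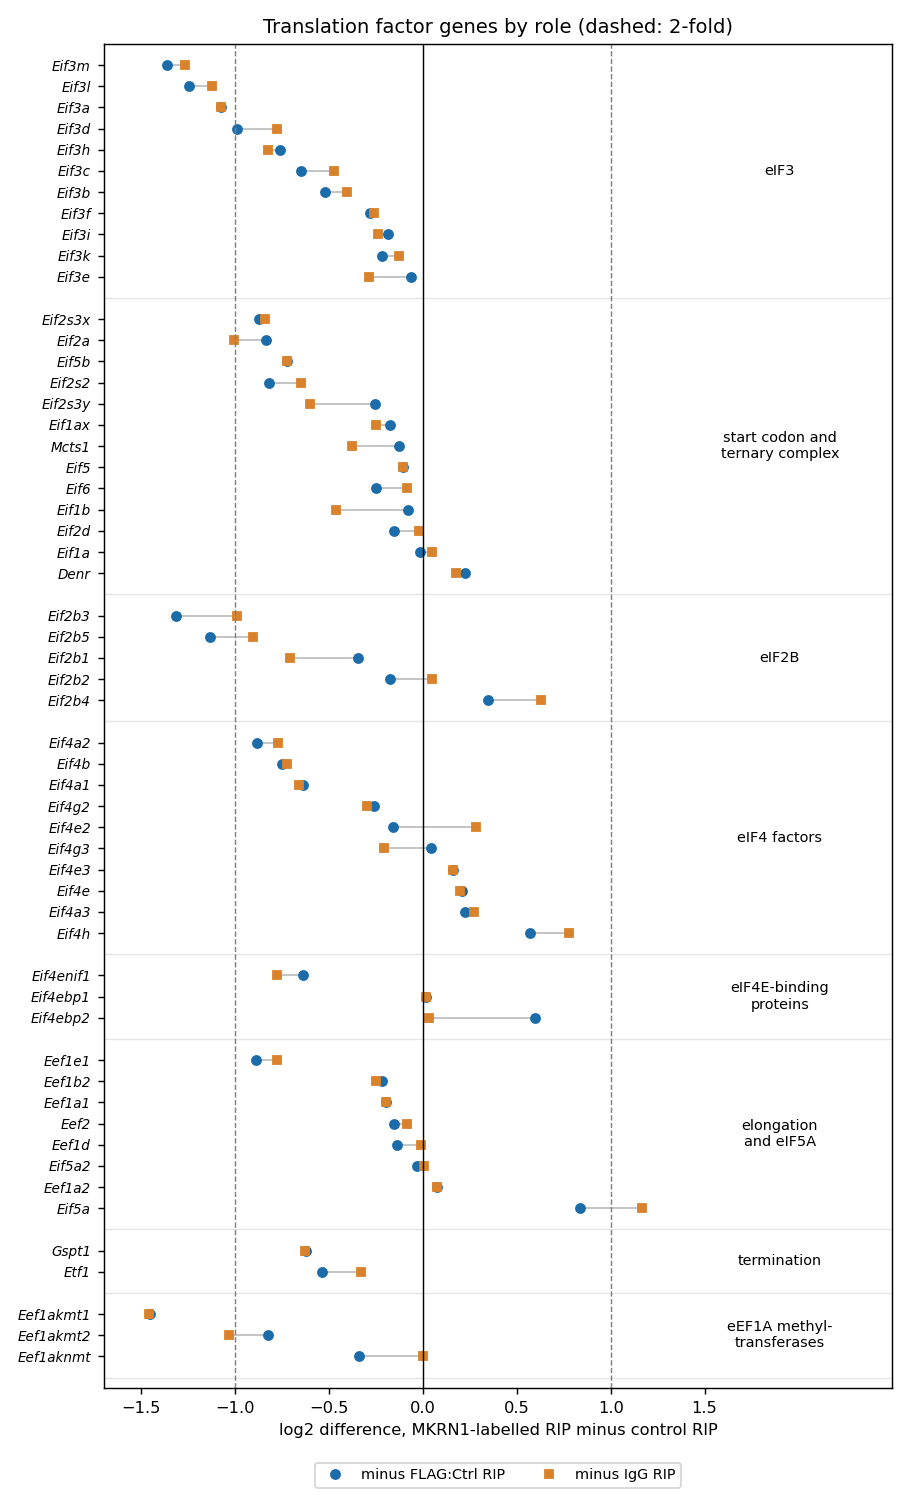
Log2 difference of the MKRN1-labelled RIP from the FLAG:Ctrl RIP (circles) and from the IgG RIP (squares) for the 55 translation factor genes, grouped by role, 1 array per RIP. All 11 eIF3 genes lie left of 0, eIF4 and elongation genes lie on both sides, and dashed lines mark 2-fold.

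The eIF3 complex, the largest initiation factor, was lower as a group. All 11 of its measured genes lay below both control RIPs, against 62.1% of all genes above the 75th percentile of level, and 10 lay below the input. Below both control RIPs were also 10 after quantile normalization, 9 with arrays centred on the genes compared and 8 with the trend with signal level removed. The shares of all genes compared were then 45.5%, 33.9% and 44.0%. Under each of these scalings 1 of the 11, Eif3m, was called lower (9.09%). Of all genes compared, 3.61%, 3.52% and 3.30% were called lower there. The group medians were -0.65 with the FLAG:Ctrl RIP, -0.47 with the IgG RIP and -0.41 with the input as the comparison. With the trend removed the first of these was -0.43 and the second -0.24, still below 0.

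Eif3m, which encodes a subunit of the scaffold of eIF3, had a log2 value of 11.57 in the MKRN1-labelled RIP, against 12.83 in the IgG RIP, 12.93 in the FLAG:Ctrl RIP, 12.55 in its input and 12.72 in the FLAG:Ctrl input. The gap was thus 2.58-fold to the FLAG:Ctrl RIP and 2.40-fold to the IgG RIP. The other 4 arrays lay within a narrow band above it.

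Eif3l, a peripheral subunit, had a value of 10.15 in the MKRN1-labelled RIP, against 11.27 in the IgG RIP, 11.40 in the FLAG:Ctrl RIP, 11.31 in its input and 11.36 in the FLAG:Ctrl input. It was 2.37-fold and 2.18-fold below the FLAG:Ctrl and IgG RIPs and 2.23-fold below its input. Here the control RIPs and the inputs were nearly alike and 1 array stood alone.

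Eif3a, the largest subunit and the organiser of the complex, followed the same pattern, with 10.84 in the MKRN1-labelled RIP, against 11.92 in each control RIP, 11.95 in its input and 11.96 in the FLAG:Ctrl input. It was 2.11-fold below each control RIP and 2.16-fold below its input. In Eif3a and Eif3l the control RIPs differed from their own inputs by no more than 0.04.

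The other subunits ran without a gap down to almost no difference. Eif3d, which can itself bind the cap of some mRNAs, was at -0.99 to the FLAG:Ctrl RIP and -0.78 to the IgG RIP. Eif3h differed by -0.76 and -0.83, Eif3c by -0.65 and -0.47, and Eif3b by -0.52 and -0.41. Eif3f, Eif3i, Eif3k and Eif3e lay nearest to the control RIPs. Eif3e had the smallest score, at -0.07 to the FLAG:Ctrl RIP and -0.29 to the IgG RIP, and it no longer lay below both control RIPs after quantile normalization, with the trend removed or with arrays centred on the genes compared. Eif3k lay nearest to the IgG RIP, at -0.13. Eif3m and Eif3e, which belong to the same scaffold, thus had unlike values.

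**Figure D3:**
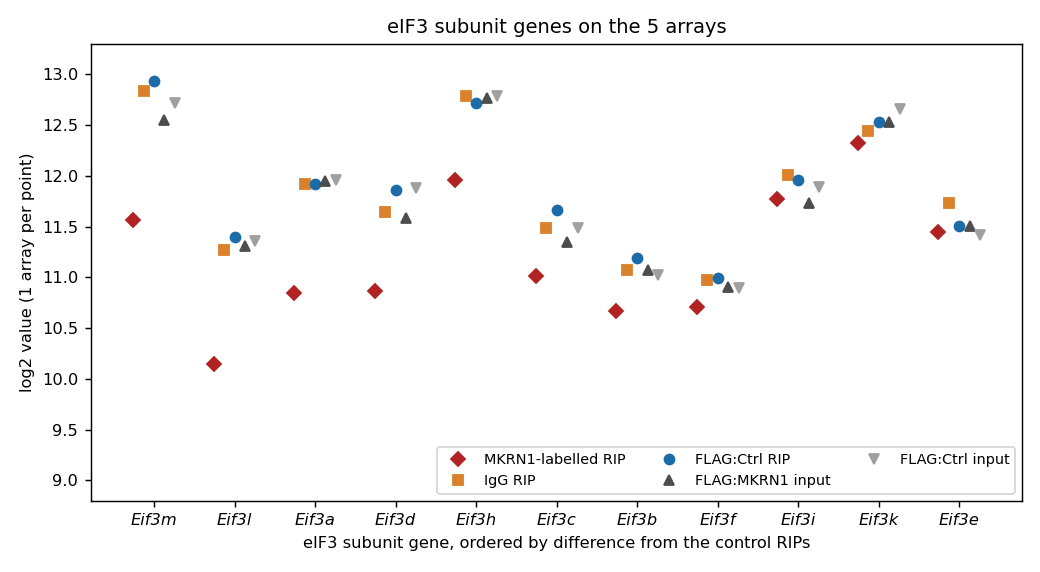
Log2 value of the 11 eIF3 subunit genes on each of the 5 arrays (y axis), ordered by their difference from the control RIPs. The red diamond of the MKRN1-labelled RIP lies clear of the other 4 points for Eif3m, Eif3l and Eif3a and among or close to them for Eif3i, Eif3k and Eif3e, and levels of different genes are not comparable.

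The array identifiers bear on several of these values. Probe set identifiers run in chromosome order. For 97.2% of 21553 named probe sets, the commonest chromosome among the 10 named probe sets on either side was that of the gene. In 6 of the 55 genes there was more than 1 probe set. For 5 of the 6 (Eif2s2, Eif3m, Eif4a1, Eif4e and Eif5a) the probe set with the highest mean stood among identifiers of another chromosome than that of the gene. At least 80% of its neighbours had to share that chromosome, and none of the 49 genes with 1 probe set met this rule. Eif4enif1, of chromosome 11, fell short of that share. The commonest chromosome by its brightest probe set was 10 (share 0.5), and by its other probe set 13 (share 0.9). Whether these probe sets read the named gene, a copy of it, or both was not tested.

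**Figure D4:**
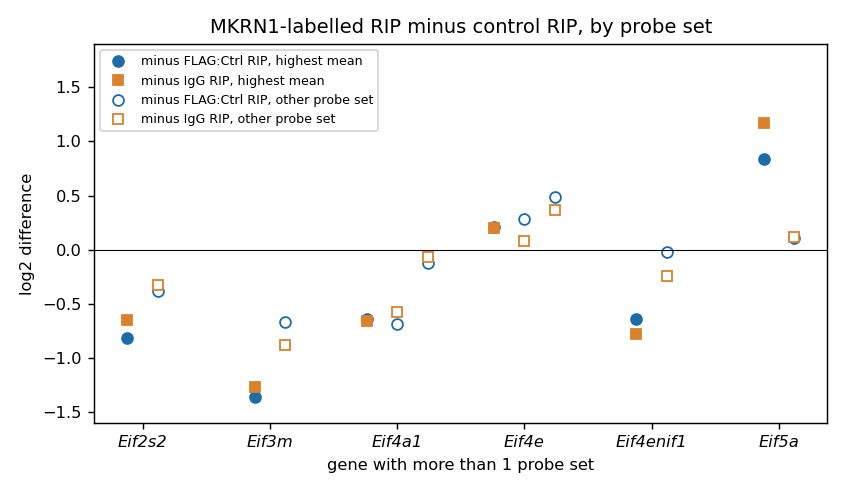
Log2 difference of the MKRN1-labelled RIP from the FLAG:Ctrl RIP (circles) and the IgG RIP (squares) for each probe set of the 6 genes with several, filled for the probe set with the highest mean. The filled symbols lie farther from 0 than the open ones for Eif2s2, Eif3m, Eif4enif1 and Eif5a.

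For Eif3m, the probe set among identifiers of chromosome 2, where the gene lies, had a value of 9.61 in the MKRN1-labelled RIP, against 10.49 in the IgG RIP and 10.28 in the FLAG:Ctrl RIP. Its differences of -0.67 and -0.88 from the FLAG:Ctrl and IgG RIPs kept the direction and fell short of 2-fold. In an alternative, the probe set among identifiers of the gene's own chromosome was taken where there was one, and the brightest otherwise, as for Eif4enif1. By it 3 of the 55 genes were called lower (5.45%, and 5.40% of all genes): Eef1akmt1, Eif3a and Eif3l. Eif3a and Eif3l had 1 probe set each, and both were short of 2-fold after quantile normalization, with scores of -0.87 each.

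Factors of the start codon and of the ternary complex, which holds eIF2, GTP and the initiator tRNA, spread from -0.88 to 0.23 against the FLAG:Ctrl RIP. Of the 13 genes, 12 lay below the FLAG:Ctrl RIP and 11 below the IgG RIP. No member was called. The median was -0.17 to the FLAG:Ctrl RIP, and -0.00 after quantile normalization and 0.05 with the trend removed. To the IgG RIP it was -0.38, and -0.14 and -0.10 under the same alternatives, so only the comparison with the IgG RIP kept its direction under both.

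Eif2s3x, the X-linked gene of the eIF2 subunit that binds GTP and the tRNA, had 11.29 in the MKRN1-labelled RIP, against 12.14 in the IgG RIP, 12.17 in the FLAG:Ctrl RIP and 12.24 in its input. Its Y-linked counterpart Eif2s3y had 9.18 in the MKRN1-labelled RIP, against 9.78 in the IgG RIP, 9.44 in the FLAG:Ctrl RIP and 9.65 in its input. The differences were -0.88 and -0.25 from the FLAG:Ctrl RIP, and -0.84 and -0.60 from the IgG RIP. Eif2a, an initiation factor distinct from eIF2 that can deliver the initiator tRNA, had 10.47 in the MKRN1-labelled RIP, against 11.47 in the IgG RIP, 11.30 in the FLAG:Ctrl RIP and 11.42 in its input. Eif2s3x, Eif2s3y and Eif2a were each lowest in the MKRN1-labelled RIP of all 5 arrays.

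Eif5b, which joins the ribosomal subunits, differed by -0.73 from each control RIP. Eif5, which makes eIF2 hydrolyse its GTP, varied little. Its value was 11.94 in the MKRN1-labelled RIP and 12.04 on the other 4 arrays. Equal values on 2 arrays (within 1e-06) were common in the deposited table, for 17.8% of all genes and 7 of the 55 genes between the control RIPs. Denr and Mcts1 encode partners that act in reinitiation and ribosome recycling. Denr, the highest of the group, had 12.43 in the MKRN1-labelled RIP, against 12.26 in the IgG RIP, 12.21 in the FLAG:Ctrl RIP and 11.88 in its input, while Mcts1 differed by -0.13 and -0.38 from the FLAG:Ctrl and IgG RIPs. With each array centred on its median, which puts the median of all genes at -0.23 to the FLAG:Ctrl RIP and -0.18 to the IgG RIP, the score of Denr was 0.00.

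The 5 subunits of eIF2B did not share a direction. Eif2b5, the catalytic subunit, and Eif2b3, its partner in the catalytic subcomplex, were the lowest pair. Eif2b3 had 8.52 in the MKRN1-labelled RIP, against 9.51 in the IgG RIP, 9.83 in the FLAG:Ctrl RIP, 8.99 in its input and 9.31 in the FLAG:Ctrl input. Eif2b5 had 8.96 in the MKRN1-labelled RIP, against 9.87 in the IgG RIP, 10.09 in the FLAG:Ctrl RIP, 9.31 in its input and 9.69 in the FLAG:Ctrl input.

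In both genes the control RIPs lay above their inputs, by 0.40 to 0.56, so part of the gap between RIPs lies on that side. Relative to its input the MKRN1-labelled RIP differed by -0.47 for Eif2b3 and -0.35 for Eif2b5. Of the regulatory subunits, Eif2b1 differed by -0.34 and -0.71 from the FLAG:Ctrl and IgG RIPs and Eif2b2 by -0.17 and 0.05. Eif2b4 went the other way, with 8.01 in the MKRN1-labelled RIP, against 7.38 in the IgG RIP, 7.67 in the FLAG:Ctrl RIP and 7.46 in its input. The eIF2B median was -0.34 to the FLAG:Ctrl RIP and -0.71 to the IgG RIP, and after quantile normalization -0.06 and -0.42.

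Genes of the eIF4 factors, which act at the cap, had a median near 0. Of 10, 5 lay below each control RIP, with medians of -0.06 to the FLAG:Ctrl RIP and -0.02 to the IgG RIP, turning to 0.14 and 0.03 after quantile normalization. No eIF4 gene was called. Eif4e, the cap-binding protein, had 11.17 in the MKRN1-labelled RIP, against 10.98 in the IgG RIP, 10.97 in the FLAG:Ctrl RIP and 10.97 in its input. The value of Eif4e was slightly above both control RIPs in each of its 3 probe sets, by 0.08 to 0.49, though its score was 0.00 with each array centred on its median.

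The helicase genes and their helpers did not move together. Eif4a1 and Eif4a2 encode closely related forms of the helicase eIF4A. Eif4a2, with 1 probe set, had 11.43 in the MKRN1-labelled RIP, against 12.20 in the IgG RIP, 12.32 in the FLAG:Ctrl RIP and 12.10 in its input. Eif4a1 differed by -0.64 and -0.66 from the FLAG:Ctrl and IgG RIPs, but by -0.12 and -0.06 in its probe set among identifiers of chromosome 11, where the gene lies. Eif4a3, the eIF4A relative of the exon junction complex, was above both control RIPs by 0.22 and 0.27.

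Eif4b and Eif4h both encode proteins that stimulate eIF4A, and they lay on opposite sides. Eif4h had 11.46 in the MKRN1-labelled RIP, against 10.68 in the IgG RIP, 10.89 in the FLAG:Ctrl RIP, 10.57 in its input and 10.85 in the FLAG:Ctrl input. It was 1.48-fold above the FLAG:Ctrl RIP, 1.71-fold above the IgG RIP and 1.86-fold above its input, short of 2-fold in each case. Eif4b had 11.26 in the MKRN1-labelled RIP, against 11.98 in the IgG RIP, 12.01 in the FLAG:Ctrl RIP and 11.97 in its input. Eif4h stayed above both control RIPs under every scaling tried, with scores from 0.37 to 0.81. Eif4e3, another cap-binding relative, differed by 0.16 from each control RIP. With each array centred on its median, a shift of all genes that is larger than this difference, its score was -0.017.

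The proteins that bind eIF4E and hold it back gave no shared direction. Eif4ebp1 differed by 0.02 from each control RIP. Eif4ebp2 had 8.75 in the MKRN1-labelled RIP, against 8.72 in the IgG RIP, 8.16 in the FLAG:Ctrl RIP and 9.13 in its input. The control RIPs themselves were farthest apart for Eif4ebp2 among the 55 genes, by -0.56 for the FLAG:Ctrl RIP minus the IgG RIP. Eif4enif1, which carries eIF4E into the nucleus and represses mRNAs, differed by -0.64 and -0.78, and by -0.02 and -0.24 in its other probe set.

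Elongation factor genes were close to the control RIPs. The median over 8 genes, eIF5A included, was -0.15 to the FLAG:Ctrl RIP and -0.05 to the IgG RIP, and after quantile normalization -0.13 and -0.05. Centring arrays on the genes compared, which puts all genes at 0.14 and 0.14, gave 0.02 and 0.10. Eef1a1, which delivers aminoacyl-tRNA, had 13.64 in the MKRN1-labelled RIP, against 13.84 in each control RIP, 13.89 in its input and 13.86 in the FLAG:Ctrl input. Eef2, the translocation factor, had 12.47 in the MKRN1-labelled RIP, against 12.56 in the IgG RIP, 12.63 in the FLAG:Ctrl RIP and 12.80 in its input. In both genes all 5 arrays lay close together. Eef1a2, the form of eEF1A known from neurons and muscle, differed by 0.07 from each control RIP.

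The exchange factor genes Eef1b2 and Eef1d differed by -0.22 and -0.14 from the FLAG:Ctrl RIP. Eef1e1, which despite its symbol encodes a part of the multisynthetase complex, was the lowest of the group. It had 10.56 in the MKRN1-labelled RIP, against 11.33 in the IgG RIP, 11.44 in the FLAG:Ctrl RIP and 11.26 in its input.

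Eif5a encodes the hypusine-bearing factor that helps ribosomes past stalling sequences, and its probe set with the highest mean had the highest score of the 55 genes. It had 12.38 in the MKRN1-labelled RIP, against 11.21 in the IgG RIP, 11.55 in the FLAG:Ctrl RIP, 11.24 in its input and 11.33 in the FLAG:Ctrl input. The MKRN1-labelled RIP stood alone above the other 4 arrays. It was 2.25-fold above the IgG RIP, 2.20-fold above its input and 1.78-fold above the FLAG:Ctrl RIP. That probe set lies among identifiers of chromosome 5. The probe set among identifiers of chromosome 11, where Eif5a lies, had 7.83 in the MKRN1-labelled RIP, against 7.71 in the IgG RIP and 7.72 in the FLAG:Ctrl RIP, a score of 0.10. The related gene Eif5a2 differed by -0.03 and 0.01.

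The genes of the release factors lay below both control RIPs and near the input. Gspt1, which encodes the GTPase eRF3, had 11.26 in the MKRN1-labelled RIP, against 11.89 in each control RIP, 11.45 in its input and 11.31 in the FLAG:Ctrl input. Etf1, which encodes eRF1, had 11.49 in the MKRN1-labelled RIP, against 11.82 in the IgG RIP, 12.02 in the FLAG:Ctrl RIP and 11.71 in its input. For Gspt1 the control RIPs were the high arrays, 0.44 and 0.57 above their inputs in the IgG and FLAG:Ctrl RIPs.

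Of the methyltransferase genes, 2 also had high control RIPs. Eef1akmt1 had 8.20 in the MKRN1-labelled RIP, against 9.66 in each control RIP, 8.48 in its input and 9.23 in the FLAG:Ctrl input. It was 2.74-fold and 2.75-fold below the FLAG:Ctrl and IgG RIPs but 1.21-fold below its input. Eef1akmt2 had 6.81 in the MKRN1-labelled RIP, against 7.84 in the IgG RIP, 7.63 in the FLAG:Ctrl RIP and 6.57 in its input, and so lay above its input. With the input of each lysate taken off first, Eef1akmt1 had a score of -0.70 and was not called. Eef1aknmt had a difference of -0.34 to the FLAG:Ctrl RIP and 0.00 to the IgG RIP.

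Of genes whose mRNAs are known to carry the 5′ oligopyrimidine tract, 8 were on the list (Eef1a1, Eef1b2, Eef1d, Eef2, Eif3e, Eif3f, Eif3h and Eif4b). None was called, a share that for so few genes is near the 5.36% of all genes, and all 8 lay below both control RIPs. Their medians were -0.21 to the FLAG:Ctrl RIP and -0.25 to the IgG RIP, close to -0.25 and -0.33 for the other 47 genes. With the trend removed, 4 of the 8 lay below both control RIPs. Among the 8 promoter windows, those of Eif3f, Eef1a1, Eif3l and Eif3m had a run. Their differences from the FLAG:Ctrl RIP were -0.28, -0.20, -1.25 and -1.37. Those of Eif4b, Eef1b2, Eef2 and Eif3a had none, and their differences were -0.75, -0.22, -0.15 and -1.08. Eif4b, Eef1b2 and Eef2 are on the oligopyrimidine list all the same, while Eif3a, Eif3l and Eif3m were printed for their low values.

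Compared with the input of the same lysate, the MKRN1-labelled RIP was at least 2-fold lower in 2 of the 55 genes, Eif3a and Eif3l, or 3.64%, and 5.51% of all genes. It was at least 2-fold higher in 1, Eif5a, against 2.47% of all genes. The median over the 55 genes was -0.19, against 0.00 over all genes. Both shares lie near or below that of all genes.

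The control RIPs lay close to their inputs. The medians were 0.08 in the IgG RIP and 0.10 in the FLAG:Ctrl RIP. In the IgG RIP 2 genes, Eef1akmt1 and Eef1akmt2, were at least 2-fold above input, against 1.32% of all genes, and none was at least 2-fold below (0.461% of all genes). In the FLAG:Ctrl RIP no gene was at least 2-fold above or below its input, against 0.948% and 0.374% of all genes. The eIF2B genes lay above input in these backgrounds, by medians of 0.52 in the IgG RIP and 0.39 in the FLAG:Ctrl RIP, while eIF3 genes lay at 0.06 and 0.07.

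**Figure D5:**
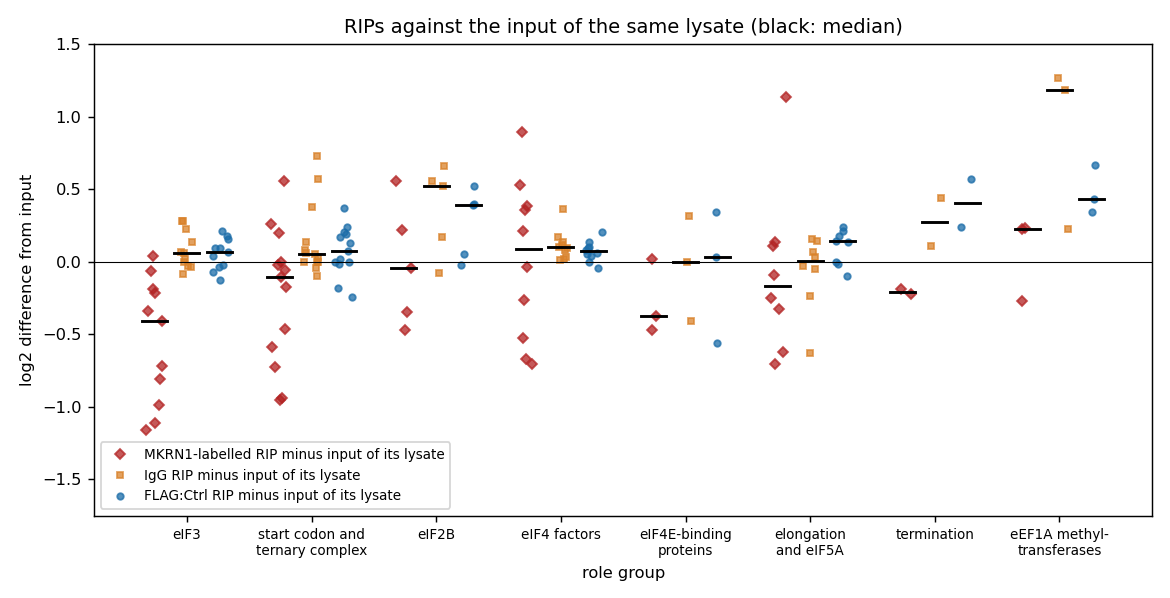
Log2 difference of each RIP from the input of its own lysate (y axis) for the 55 genes by role (x axis), with black bars for medians. Of the 11 eIF3 genes 10 lie below 0 in the MKRN1-labelled RIP and all lie around 0 in both control RIPs, with medians of 0.06 and 0.07 in the IgG and FLAG:Ctrl RIPs. The medians of eIF2B genes there are 0.52 and 0.39, of release factor genes 0.27 and 0.40, and of methyltransferase genes 1.18 and 0.43.

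The lysates themselves held similar levels of these RNAs. Between the FLAG:MKRN1 and FLAG:Ctrl inputs the median difference was -0.00, and no gene was 2-fold higher or lower, against 0.878% and 0.791% of all genes. The range ran from -0.75 for Eef1akmt1 to 0.59 for Eif5a2. Eif3a, Eif3l and Eif3m differed by -0.00, -0.05 and -0.17 between the inputs.

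Other genes of protein synthesis were compared through lists of related genes. Aminoacyl-tRNA synthetases, which load tRNAs with amino acids, held the most called genes of these lists, with 6 of 20 called lower (30.0%) and none higher. Of all genes compared 5.36% were called lower, and 9.05% above the 75th percentile of level, where all 20 lay. Their medians were -0.66 to the FLAG:Ctrl RIP and -0.55 to the IgG RIP, and after quantile normalization 3 were called (15.0%, and 3.61% of all genes). Tars, the threonyl-tRNA synthetase gene, had 8.71 in the MKRN1-labelled RIP, against 11.04 in the IgG RIP, 10.98 in the FLAG:Ctrl RIP and 10.68 in its input. Iars, for isoleucine, had a score of -1.95, and -0.87 in its probe set among identifiers of chromosome 13, where it lies. The others were Lars at -1.31, Wars at -1.16, Eprs at -1.03 and Aimp2, a scaffold of the multisynthetase complex that also holds Eef1e1, at -1.01.

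Of 11 mitochondrial translation factors 2 were called lower (18.2%, against the same 5.36% of all genes), the elongation factor gene Gfm1 at -1.08 and Mtfmt, which formylates the mitochondrial initiator tRNA, at -1.17. Above the 75th percentile of level 1 of 8 was called (12.5%, and 9.05% of all genes). After quantile normalization it was 1 of 11 (9.09%, and 3.61% of all genes). Mrrf, for mitochondrial ribosome recycling, scored -0.91. Of 29 kinases and other regulators of translation 1 was called lower (3.45%, below the share of all genes), the helicase gene Dhx29, which aids scanning, at -1.01. Impact, a regulator of the kinase GCN2, and Mtor, the growth kinase, scored -0.91 and -0.89. None of these genes was called higher. The list medians were -0.58 and -0.67 for the mitochondrial factors and -0.29 and -0.22 for the regulators, from the FLAG:Ctrl and IgG RIPs.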

How the data were processed

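Expression was read as log2 values of probe sets in the authors' table, with 1 column for each of 5 arrays. Per the labels, cDNA from 10 ng of each RNA was labelled with biotin for Affymetrix arrays. How background was corrected and arrays normalized is not given in the sources used here. Array medians ran from 5.68 to 5.88, and no scaling was added. Array signal has no read depth, and 1 array per group limits the precision.

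Groups were read from the titles. Platform symbols were updated through the RefSeq gene table of GRCm38.p6, which was also used for the chromosome of each gene and of its neighbours by identifier. Of 34760 probe sets, 21640 had 1 symbol, giving 19937 genes, of which 11502 passed the level filter. Differences of log2 values were counted at 2-fold. The members and lists were chosen with earlier results of these data known. The rule for named genes took those at least 2-fold different in a comparison of the MKRN1-labelled RIP, the 8 highest and 8 lowest scores, the ends of each role group, a few fixed genes, and up to 3 genes, with all called genes, of each related list; other genes are named as examples. The calling rule was tried on simulated data of 11502 genes, where all planted log2 differences of 2 from both control RIPs (100%) and 96.0% of those of 1.5 were called. Both planted sizes lie above the log2 threshold of 1, so this recovery says little about differences near it. The share of false calls is not given here. Alternatives were other scalings, filters, thresholds, controls and probe sets. Python 3.11.15, pandas 2.3.3, numpy 2.4.6 and statsmodels 0.14.6 (lowess, fraction 0.3) were used.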

Additional observations from a re-analysis of the deposited data

How the results depend on the processing

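No paired analysis was possible because each group has 1 array. Without replicates, differences have no error, and 10 ng of RNA per array and unknown normalization limit what their size means. Of 164 counts and medians recomputed under an alternative, 118 stayed within 1.5 times the count or 0.1 of the median, and 46 moved by more; of 239 recomputed scores of 27 genes, 136 kept within 0.1 log2, 102 moved by more and 1 reversed (Eif4e3, -0.017 when centring on array medians). In place of 4, the genes called lower numbered 8 when centring on array medians, 2 under quantile normalization, 2 with the trend with signal level removed, 2 with arrays centred on the genes compared, 6 with the FLAG:Ctrl RIP alone, 5 with the IgG RIP alone, 3 without the methyltransferase genes, 3 with own-chromosome probe sets, 18 at 1.5-fold and 0 at 4-fold. In place of 0, those called higher numbered 1 with the trend removed, 1 at 1.5-fold and 1 with the IgG RIP alone, each time Eif5a. Of all 11502 genes, 185, 548 and 173 were called higher there. Shares called lower moved for all genes too. When centring on array medians they were 14.5% of the 55 genes and 8.42% of all genes. Quantile normalization gave 3.64% and 3.61%, removal of the trend 3.64% and 3.30%, and centring on the genes compared 3.64% and 3.52%. They were 10.9% and 6.88% with the FLAG:Ctrl RIP alone, and 9.09% and 6.86% with the IgG RIP alone. Without the methyltransferase genes they were 5.77% and 5.36%. Centring on array medians gave medians of -0.46 to the FLAG:Ctrl RIP, -0.47 to the IgG RIP and -0.30 to the input, where all genes had -0.23, -0.18 and -0.11. It gave 13, 10 and 5 genes at least 2-fold lower and 0 at least 2-fold above the IgG RIP. Quantile normalization gave medians of -0.14 and -0.16 to the FLAG:Ctrl and IgG RIPs, with 3 and 3 genes at least 2-fold lower. Removing the trend gave -0.093 and -0.13, with 3 and 2 genes at least 2-fold lower and 1 and 2 higher; the medians of the FLAG:Ctrl and IgG RIPs to their inputs turned sign, to -0.018 and -0.053. The IgG RIP median to its input also turned, to -0.019 under quantile normalization and -0.020 with arrays centred on the genes compared. Centring on the genes compared, chosen after seeing the data, gave -0.088 and -0.14, with 2 genes at least 2-fold below the IgG RIP and all genes at 0.14 and 0.14. At 1.5-fold, 20, 21 and 13 genes were lower than the FLAG:Ctrl RIP, the IgG RIP and the input, and 2, 3 and 2 higher. At 4-fold there were 0 in each. For the counts of genes lower or higher than a single RIP or the input, shares of all genes under these alternatives are not given here. With the median over probe sets, or with the probe set among identifiers of the gene's own chromosome (chosen after seeing the data), 0 genes were at least 2-fold above the IgG RIP or the input. At 4-fold none of the 55 genes was called, so no eIF3 gene was called under every alternative. Apart from 4-fold, Eif3m was called under each except own-chromosome probe sets. Eif3a and Eif3l were not called under quantile normalization, with the trend removed or with arrays centred on the genes compared. Causes of these shifts were not tested.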
